A study of Mus musculus with 4 samples.

Results

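The NEDD4 family of ubiquitin ligases was examined as 9 genes, of the 34745 genes in the table of mouse macrophages. These were the 7 ligases Nedd4, Nedd4l, Itch, Wwp1, Wwp2, Smurf1 and Smurf2, and the adaptors Ndfip1 and Ndfip2, which were matched by gene symbol. The family was selected on the measured values of 1 of them, since Nedd4 was higher in both libraries labelled KO than in both labelled WT. The other 8 genes came by family and not by their own values. All 9 were among the 12418 genes that passed the filter on low counts.

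Total RNA was sequenced in 4 libraries, 2 per genotype, numbered 1 and 2 within each. The study's text gives the cells as bone marrow-derived macrophages, and its controls, labelled WT, as G3bp1f/f mice, which carry a floxed G3bp1 gene. The mice labelled KO, G3bp1mac-/-, carried the same floxed gene and a Cre recombinase under the Lyz2 promoter, which is active in monocytes, macrophages and granulocytes. The study's text gives an age for its purchased C57BL/6J mice but not for these genotypes. The number of mice per library and any treatment before lysis are not given in the sources used here. Nothing says whether the numbers mark separate mice or cultures, so errors measure only the spread between these libraries, which may be technical.

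NEDD4-type ligases are E3 enzymes, which take activated ubiquitin from an E2 enzyme and pass it to a substrate. Their HECT domain carries the ubiquitin on a catalytic cysteine on the way, and their WW domains bind proline-rich PY motifs in substrates and adaptors. The ubiquitin they add marks many membrane receptors and transporters for internalisation and sorting to the lysosome, and in immune cells Itch and its adaptors are known for restraining inflammation.

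The targeted gene was looked at first. G3bp1 was at 104 and 180 CPM (counts relative to the scaled library total) in WT and at 70.1 and 117 CPM in KO. KO replicate 2 lay above WT replicate 1, so the genotypes overlapped. The log2 fold change of KO against WT was -0.61 (SE 0.40), with an edgeR quasi-likelihood adjusted p of 0.904. Within the numbers the ratios were -0.57 and -0.63. A gene count does not resolve lost exons, and the overlapping levels do not settle the labels, so that KO and WT below stand for the libraries labelled so. Library totals ran from 16724241 to 19747909 counts, and the first principal component, with 57.4% of the variance, separated number 1 from number 2. The genotypes lay apart on the second, with 34.3%. The 8 macrophage markers (Adgre1, Csf1r, Cd68, Itgam, Mertk, Fcgr1, Lyz2 and Cd14) were all detected and summed to 21090 to 26410 CPM, most of it Lyz2. Stromal markers summed to 81.1 to 359 CPM, endothelial to 22.9 to 55.7, neutrophil to 7.88 to 28.2, B cell to 23.4 to 47.0, mast cell and basophil to 17.6 to 34.0, dendritic cell to 3.70 to 7.59, and T and NK cell to 0.863 to 1.48.

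Nedd4, the founding ligase of the family, which acts on growth factor receptors and endocytic adaptors among others, had its lowest values in WT and its highest in KO. Nedd4 (ENSMUSG00000032216) is a protein-coding gene on chromosome 9 from 72662346 to 72749852 of GRCm38, plus strand, with 29 exons in its main transcript. The libraries held 151 and 187 counts of Nedd4 (WT), and 842 and 686 (KO). On the scaled totals this was 9.30 and 11.7 CPM in WT and 45.2 and 34.8 CPM in KO. The lowest KO library thus lay far above the highest WT library, and KO replicate 1 was the highest of the 4. The WT mean was 10.5 ± 1.72 CPM and the KO mean 40.0 ± 7.30 CPM (SD, n = 2 per genotype), 3.80-fold apart.

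As a log2 fold change, the difference in Nedd4 was 1.93 (SE 0.27, 95% confidence interval 1.25 to 2.60). It is given as a description with no test, because these values chose the family. The ratio of KO to WT was 2.28 on the log2 scale within number 1 and 1.57 within number 2. Of the 12418 genes tested, 239 had a larger log2 fold change than Nedd4, and 126 had larger ratios within both numbers. For 2477 genes, or 19.9% of those tested, KO lay above WT without overlap, so this pattern alone was common.

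**Figure D1:**
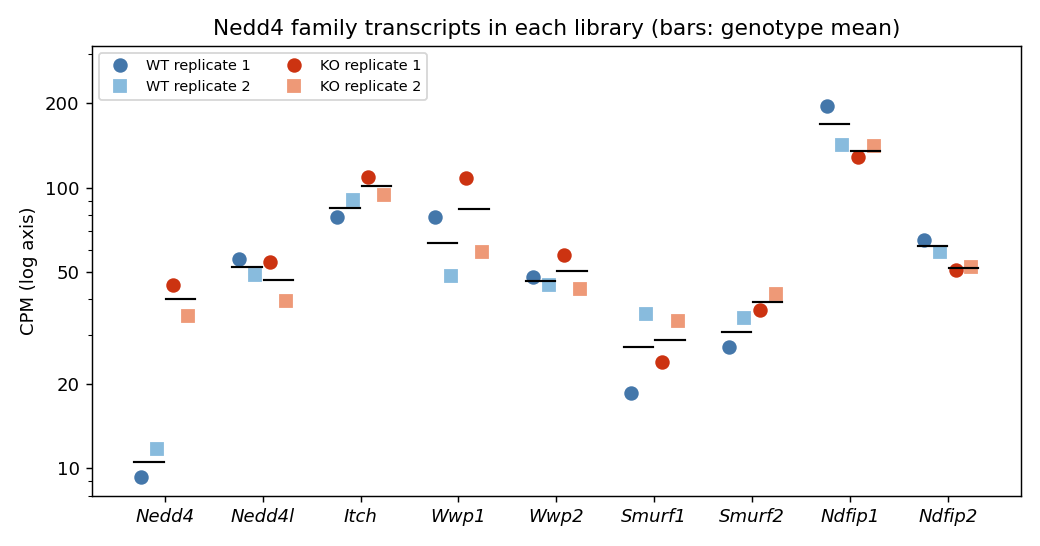
CPM (log axis) of the 9 family members in each library, with circles for replicate 1, squares for replicate 2 and black bars for the mean of each genotype (n = 2). Nedd4 sits at 9.30 and 11.7 CPM in WT and at 45.2 and 34.8 CPM in KO, while the libraries of the other members lie close together or overlap.

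Counts per gene do not show which start of Nedd4 was used. RefSeq (GRCm38.p6) gives the gene a pair of starts, 30967 bases apart, and the 250 bases before each are shown because the count that differs pools transcripts from both. They are written 5' to 3' on the plus strand with every CG dinucleotide in capitals. CG reads the same on both strands.
First start, chr9:72662081-72662330: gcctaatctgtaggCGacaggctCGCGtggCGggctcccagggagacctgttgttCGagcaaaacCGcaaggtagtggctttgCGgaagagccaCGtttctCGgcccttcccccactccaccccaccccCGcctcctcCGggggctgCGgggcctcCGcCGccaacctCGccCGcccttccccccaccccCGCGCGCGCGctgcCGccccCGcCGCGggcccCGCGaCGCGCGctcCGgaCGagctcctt
Second start, chr9:72693048-72693297: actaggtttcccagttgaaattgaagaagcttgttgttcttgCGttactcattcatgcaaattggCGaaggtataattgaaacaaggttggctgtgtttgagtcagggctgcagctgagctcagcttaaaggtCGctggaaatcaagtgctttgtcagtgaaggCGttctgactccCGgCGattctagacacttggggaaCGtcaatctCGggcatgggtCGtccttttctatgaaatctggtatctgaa
The first window held 32 CG dinucleotides and 74.0% G or C. Of 32851 windows of this length before RefSeq starts, 4.58% held at least as many. The second held 9 with 46.0% G or C, a number reached by 40.3% of windows, where the median window held 6. The first window is thus among those richest in CG and the second is not.

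The 11 stromal markers, genes of fibroblasts and smooth muscle such as collagens and Pdgfra, had higher levels in KO as well. Their summed level was 81.1 and 95.7 CPM in WT and 359 and 335 CPM in KO, a 3.92-fold difference. KO lay above WT without overlap for 9 of the 11, where 19.9% of all genes did so, and none was at 0 in all libraries. Pdgfra, a receptor that marks mesenchymal cells, had 14.1 and 20.1 CPM in WT and 70.8 and 73.5 CPM in KO. Endothelial markers also had higher sums in KO, with 55.7 and 37.3 CPM against 32.5 and 22.9 in WT, but the difference lay in Vwf (26.7 and 19.6 CPM in WT, 49.3 and 34.9 in KO), while Kdr and Cdh5 overlapped and Tek and Emcn were at 0. Dendritic cell markers overlapped, with 3.70 and 7.59 CPM in WT against 4.24 and 6.60 in KO, as did the macrophage markers. Lower sums in KO were found for others, with 28.2 and 25.7 CPM against 7.88 and 11.8 for neutrophils, 43.1 and 47.0 against 23.4 and 27.0 for B cells, and 32.9 and 34.0 against 17.6 and 21.02 for mast cells and basophils. The neutrophil difference lay mostly in S100a8, S100a9 and Retnlg, while Camp and Ltf overlapped and Elane and Mpo were at 0. That of mast cells and basophils lay mostly in Cpa3 (29.8 and 31.2 CPM in WT, 15.9 and 19.1 in KO). Fcer1a was also lower in KO, but Gata2, at few counts, was higher, Prss34 overlapped and Mcpt8 was at 0. T and NK cell markers, of which 0 passed the filter on low counts, had 1.48 and 1.00 CPM in WT and 0.912 and 0.863 in KO. The part of any of these cells in the Nedd4 difference was not tested, and in bulk RNA a changed number of cells and a changed level per cell cannot be told apart.

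**Figure D2:**
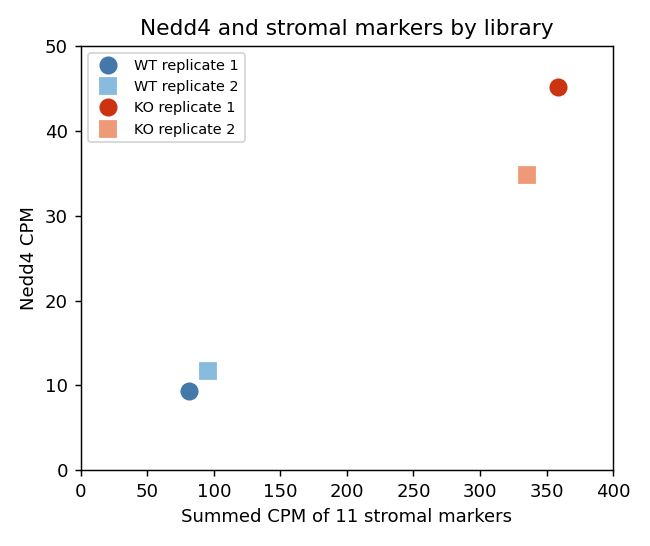
Nedd4 CPM (vertical axis) against the summed CPM of 11 stromal markers (horizontal axis), 1 point per library, both axes from 0. The WT libraries lie at 81.1 and 95.7 CPM of stromal markers with 9.30 and 11.7 CPM of Nedd4, and the KO libraries at 359 and 335 CPM with 45.2 and 34.8 CPM.

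The genes with the pattern most like that of Nedd4 were Anln, Amotl1 and S100a16. Likeness was the root mean square difference of log2 CPM, centred on each gene's mean over the 4 libraries, and it was 0.050 for Anln, 0.064 for Amotl1 and 0.068 for S100a16. Anln, which encodes the cytoskeletal scaffold anillin, was counted 47 and 55 times in WT, and 252 and 221 times in KO. Amotl1, for an angiomotin-like junction protein, had 11 and 15 counts (WT) against 70 and 52 (KO), and S100a16, for a calcium-binding protein, had 8 and 11 against 50 and 37. Among the other members Smurf2 was nearest, at 0.80 and rank 1648 of 12417 genes, and Ndfip1 was farthest, at 1.16 and rank 9410. None of the family shared the pattern of Nedd4 closely by this measure.

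Levels between members can be compared only per length. Ndfip1 stood far above the rest in FPKM (fragments scaled to gene length and library total), with 201 and 144 in WT and 154 and 151 in KO. Wwp2 followed with 11.4 FPKM as the mean of the 4 libraries, then Wwp1 with 8.65, Itch with 7.20, Nedd4l with 5.77, Smurf2 with 4.39, Ndfip2 with 3.13, Smurf1 with 2.64 and Nedd4 with 1.47. From Wwp2 downward, the ranges over the libraries overlapped for every pair of neighbours in this order, and Wwp1 alone ran from 5.26 to 14.0 FPKM. Within each of the 4 libraries, however, Wwp2 was above Wwp1. Nedd4 was the lowest of the 9 in both WT libraries, at 0.497 and 0.618 FPKM. In KO it reached 2.82 and 1.94 FPKM, close to the 2.53 and 3.17 of Smurf1 and the 3.14 and 2.88 of Ndfip2.

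The gene length behind the deposited FPKM sets part of this order. The length implied by count and FPKM was 930 bases for Ndfip1, against 6331 bases of annotated exons, and 17865 for Nedd4, against 10973. As the mean of the 4 libraries, CPM per kilobase of annotated exons was again highest for Ndfip1 at 24.0 and lowest for Nedd4 at 2.30, but Wwp1 (11.4) and Itch (9.59) came before Smurf2 (5.67) and Wwp2 (5.47). Per kilobase of the main transcript, Ndfip2 was second at 22.5. Over the mean of all libraries, only the first and the last place were thus the same in all 3 orders. Within KO the last place did not hold, since Nedd4 was above Smurf1 in FPKM in replicate 1 and above Nedd4l per kilobase of annotated exons in both replicates.

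Among the 7 ligases, the share of Nedd4 in their summed FPKM was 1.36% and 1.77% in WT and 5.05% and 4.98% in KO. Per kilobase of annotated exons the shares were 2.29% and 2.89% in WT and 7.99% and 7.70% in KO, where Nedd4l had 5.97% and 5.41%. Nedd4 was thus a small part of the ligase transcripts in every library. The summed CPM of the 6 other ligases was 306 and 303 in WT and 390 and 312 in KO, so that KO replicate 1 stood apart and KO replicate 2 lay close to WT.

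The other 8 members were compared between the genotypes next, to ask whether the family differed beyond Nedd4. A gene was called if its adjusted p was below 0.05 and it differed by more than 1 on the log2 scale. By edgeR's quasi-likelihood test 0 of them were called, and 0 of all 12418 genes (0%). The DESeq2 Wald test called 181 genes, the edgeR exact test 229 and limma 0, and 0 of the 8 by each. At an unadjusted p under 0.05 it gave 0 of the 8, where 4.64% of all genes were higher and 1.99% lower. Every 95% interval of the 8 included 0, log2 fold changes ran from -0.32 to 0.40 and adjusted p from 0.912 to 0.990. The intervals were wide, from -0.99 at the low end of Ndfip1 to 1.43 at the high end of Wwp1. The values were positive for 5 of the 6 ligases and negative for both adaptors, and 6 of the 8 had the same sign within both numbers.

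Smurf2 and Itch were the ligases whose KO libraries both lay above WT. Smurf2 (ENSMUSG00000018363, chromosome 11, 106820066 to 106920715), which acts on SMAD proteins and TGF-beta receptors, had 27.0 and 34.3 CPM in WT and 36.8 and 41.7 CPM in KO. Its log2 fold change was 0.36 (95% confidence interval -0.26 to 0.97), with 0.45 within number 1 and 0.28 within number 2. The value was 0.20 without WT replicate 1. The gap between the nearest libraries, 34.3 and 36.8 CPM, was smaller than that between the WT libraries.

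Itch (ENSMUSG00000027598, chromosome 2, 155133509 to 155226855), the ligase of JunB that is mutated in itchy mice, had 78.6 and 90.5 CPM in WT and 109 and 94.4 CPM in KO. The log2 fold change was 0.27 (95% confidence interval -0.32 to 0.86), and the ratios within the numbers were 0.47 and 0.061. Leaving out KO replicate 1 gave 0.16 and leaving out WT replicate 1 gave 0.17, and the value became 0.023 with a correction for gene length, which takes out each library's trend with length. Like Smurf2, Itch had KO above WT without overlap, which 19.9% of all genes also had.

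Wwp1 (ENSMUSG00000041058, chromosome 4, 19608303 to 19708993), a ligase with many substrates including transcription factors of the KLF family, had the widest interval of the members. It had 78.5 and 48.5 CPM in WT and 109 and 59.0 CPM in KO, so that both libraries numbered 2 lay below both numbered 1. The log2 fold change was 0.40 (95% confidence interval -0.63 to 1.43), with 0.47 and 0.28 within the numbers, and it turned to -0.10 without KO replicate 1. With the correction for gene length it was 0.19. The genotypes overlapped although each number gave a higher value in KO.

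Wwp2, Smurf1 and Nedd4l overlapped between the genotypes as well. The locus of Wwp2 also holds the pseudogene Rps26-ps1 on the other strand, outside its exons. Wwp2 (ENSMUSG00000031930, chromosome 8, 107436398 to 107558594), a ligase with WW and HECT domains like its relatives, had 47.9 and 45.1 CPM in WT and 57.5 and 43.6 CPM in KO. Its log2 fold change of 0.12 (95% confidence interval -0.51 to 0.75) became -0.090 without KO replicate 1. Smurf1 (ENSMUSG00000038780, chromosome 5, 144876495 to 144965847), a ligase of SMAD proteins and RhoA, had 18.5 and 35.6 CPM in WT and 23.9 and 33.5 CPM in KO. Here the number divided the libraries, and the log2 fold change of 0.08 (95% confidence interval -0.89 to 1.06) turned to -0.31 when WT replicate 1 was left out and to -0.19 when KO replicate 2 was.

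Nedd4l (ENSMUSG00000024589, chromosome 18, 64887756 to 65217826), the closest relative of Nedd4 and a regulator of the epithelial sodium channel, had 55.8 and 48.9 CPM in WT and 54.3 and 39.4 CPM in KO. Its log2 fold change was -0.16 (95% confidence interval -0.83 to 0.51), with -0.040 within number 1 and -0.31 within number 2, and it became 0.047 without KO replicate 2. Exons of Nedd4l share 277 bases with those of an antisense gene, A330084C13Rik, and whether counting used the strand is not given, so its counts may include reads of that gene.

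The adaptors Ndfip1 and Ndfip2 are endosomal membrane proteins whose PY motifs recruit and activate the ligases. Ndfip1 (ENSMUSG00000024425, chromosome 18, 38418975 to 38464399) had 195 and 142 CPM in WT and 128 and 141 CPM in KO. In CPM both KO libraries lay below WT, while in FPKM, which uses unscaled library totals, the genotypes overlapped. KO replicate 2 and WT replicate 2 were nearly equal in CPM, so that the ratios within the numbers, on the log2 scale, were -0.61 and -0.0090. The log2 fold change was -0.32 (95% confidence interval -0.99 to 0.34), and it turned to 0.055 with the correction for gene length. Without WT replicate 1 it was -0.076 and without WT replicate 2 it was -0.57.

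Ndfip2 (ENSMUSG00000053253, chromosome 14, 105258573 to 105309298) had 64.9 and 59.3 CPM in WT and 51.1 and 52.4 CPM in KO. The libraries of each genotype were close together and the genotypes did not overlap in CPM, with a WT mean of 62.1 ± 3.96 CPM and a KO mean of 51.8 ± 0.918 CPM (SD, n = 2 per genotype). The fitted log2 fold change was -0.26 (95% confidence interval -0.82 to 0.29), with -0.34 and -0.18 within the numbers and -0.56 with the correction for gene length. The implied length used there was 18130 bases for Ndfip2, against 11553 of annotated exons. For 16.9% of all genes KO lay below WT without overlap. In FPKM, on unscaled totals, Ndfip2 overlapped, with 3.42 and 3.08 in WT and 3.14 and 2.88 in KO. Its exons share 553 bases with the pseudogene Gm16259 on the other strand.

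**Figure D3:**
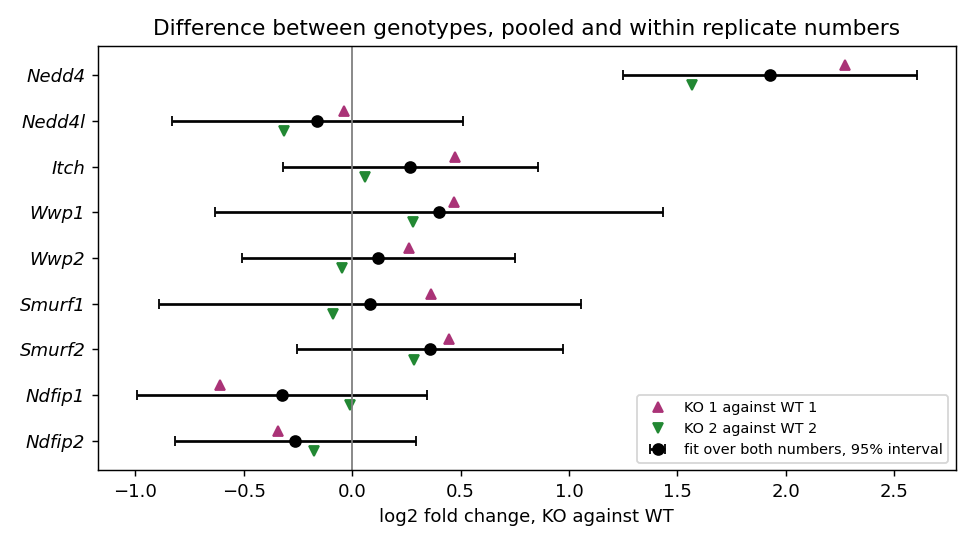
Log2 fold change of KO against WT for the 9 members (horizontal axis), with black points and bars for the fit over all 4 libraries and its 95% confidence interval, and triangles for the ratio within number 1 (up) and number 2 (down), which have no error of their own. Intervals of the 8 members other than Nedd4 all include 0, and that of Nedd4 runs from 1.25 to 2.60.

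The members also varied between the libraries numbered 1 and 2, a contrast that had no part in the choice of the family. Nothing says what the number marks, so these ratios of number 2 to number 1 are descriptions. Smurf1 was higher in number 2, by 0.94 on the log2 scale in WT and 0.49 in KO, and was the 1 member whose number 2 libraries both lay above those numbered 1, as for 25.2% of all genes. Wwp1, Nedd4l and Wwp2 had both number 2 libraries below both numbered 1, as did 23.2% of all genes. The ratios for Wwp1 were -0.69 in WT and -0.88 in KO, larger than its log2 fold change between the genotypes. For Nedd4 the ratios were of opposite sign, 0.33 in WT and -0.37 in KO, and both were small beside its difference between the genotypes.

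Genes around the family were then counted in 7 lists. The remaining NEDD4-type ligases were near absent: Hecw1 had 0 counts in every library and Hecw2 at most 4, so neither was tested. By the quasi-likelihood test 0 of their genes were called, and 0 of all genes. Of these lists the DESeq2 Wald test, with 181 calls over all genes, called Grb10, and the edgeR exact test, with 229, called Grb10 and Traf4. The median log2 fold change over all tested genes was 0.041.

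Of 17 other HECT ligases, 16 were tested, and 14 had a log2 fold change above 0, as did 6776 of all 12418 genes. Both KO libraries lay above WT for 8 of the 16 and below for 0, where 19.9% and 16.9% of all genes did so. The median was 0.25, with 0.52 within number 1 and 0.020 within number 2, and it became 0.021 with the correction for gene length. The values were thus larger within number 1 than within number 2. Trip12 and Herc4, ubiquitin ligases of nuclear and endosomal functions, had the highest levels of the list, at 11.6 and 15.7 FPKM. Their log2 fold changes were 0.25 (SE 0.24, edgeR adjusted p 0.957) for Trip12 and 0.11 (SE 0.24, edgeR adjusted p 0.979) for Herc4.

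The list of adaptors and regulators held 22 genes, of which 21 were tested, 12 above 0 and 9 below, with a median of 0.086. An unadjusted p under 0.05 was found for 2 higher genes and 1 lower gene, where 4.64% and 1.99% of all genes had one. Grb10, an adaptor that binds insulin and IGF1 receptors and Nedd4, was counted 50 and 67 times in WT, against 407 and 331 times in KO. Its log2 fold change was 2.41 (SE 0.32, edgeR unadjusted p 0.000517, adjusted p 0.216), with 2.81 and 1.99 within the numbers. In mean CPM Grb10 was 5.30-fold higher in KO and the sum of the stromal markers 3.92-fold higher, and the part of stromal cells was not tested. N4bp3, a binding protein of Nedd4, had 1.85 and 2.70 CPM in WT, and 5.42 and 5.84 CPM in KO. Txnip, an arrestin-like protein bound by Itch, had 367 and 374 CPM in WT, and 238 and 261 CPM in KO. Their log2 fold changes were 1.31 (SE 0.35, edgeR adjusted p 0.431) for N4bp3 and -0.57 (SE 0.22, edgeR adjusted p 0.739) for Txnip.

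Of the adaptors and regulators, the lysosomal membrane proteins Laptm4a and Laptm5, which carry PY motifs, had the highest mean FPKM over the 4 libraries. In CPM Sgk1, with 632 and 901 in WT and 702 and 964 in KO, lay above Laptm5 in every library. Laptm4a stood at 827 and 519 CPM in WT, and at 479 and 436 CPM in KO, with a fitted log2 difference of -0.56 (SE 0.30, edgeR adjusted p 0.857). Laptm5 stood at 452 and 426 CPM in WT, and at 592 and 501 CPM in KO, with 0.32 (SE 0.23, edgeR adjusted p 0.927). In CPM the genotypes did not overlap for either gene, in opposite directions, as for 19.9% of all genes above and 16.9% below. In FPKM, on unscaled totals, Laptm4a overlapped.

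The 6 E1 and E2 enzymes, which activate ubiquitin and hand it to the ligases, had a median log2 fold change of -0.037, and 5 of the 6 lay below 0. Uba1, the main ubiquitin-activating enzyme, had 0.10 (SE 0.25, edgeR adjusted p 0.982), and Ube2d2a had -0.021 (SE 0.28, edgeR adjusted p 0.995). The lowest value was -1.12, for Ube2l6, an interferon-induced E2 named after its values were seen, which overlapped between the genotypes (20.7 and 68.8 CPM in WT, 17.4 and 23.7 CPM in KO). All 7 deubiquitinases were tested, with a median of 0.14 and 5 above 0. Usp15 had 0.026 (SE 0.24, edgeR adjusted p 0.993) and Usp8, which removes ubiquitin from endosomal receptors, had 0.18 (SE 0.23, edgeR adjusted p 0.964).

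Of 17 genes of ubiquitin-dependent endosomal sorting, 16 were tested, 10 above 0 and 6 below, with a median of 0.060. Both KO libraries lay above WT for 3 of them and below for 3, near the 19.9% and 16.9% of all genes. Mvb12a, an ESCRT subunit that binds ubiquitin, had 79.5 and 69.6 CPM in WT, and 52.1 and 62.0 CPM in KO, a log2 difference of -0.39 (SE 0.24, edgeR adjusted p 0.902). Tollip, an endosomal ubiquitin-binding adaptor, had 0.20 (SE 0.25, edgeR adjusted p 0.964).

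The last list held 23 genes whose proteins are known substrates of the ligases. Of the 22 tested, 15 lay above 0 and 7 below. Their median was 0.075, but leaving out WT replicate 1 gave -0.014 and leaving out WT replicate 2 gave 0.42, and 1 gene was higher at an unadjusted p under 0.05, near the 4.64% of all genes. This was Traf4, a scaffold of TGF-beta and other receptor signalling, counted 21 and 12 times in WT, against 77 and 85 times in KO. Its log2 fold change was 2.04 (SE 0.42, edgeR unadjusted p 0.00398, adjusted p 0.289), with 1.65 and 2.47 within the numbers. Transcripts of substrates do not show how much protein was degraded.

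Of the substrates, Junb and Rhoa had the highest FPKM as the mean of the 4 libraries, at 96.2 and 77.5. In CPM Tax1bp1, with 550 and 530 in WT and 615 and 552 in KO, lay above Junb in every library. Rhoa, a small GTPase targeted by Smurf1, had 600.1 and 691 CPM in WT, and 620.3 and 678 CPM in KO, a log2 difference of 0.0090 (SE 0.22, edgeR adjusted p 0.996). Junb, a transcription factor targeted by Itch, had 116 and 286 CPM in WT, and 89.2 and 230 CPM in KO, a log2 difference of -0.33 (SE 0.62, edgeR adjusted p 0.974). For Junb the genotypes overlapped, and both libraries numbered 2 lay above both numbered 1. Within the numbers, its log2 ratios of KO to WT were -0.38 and -0.31. Both libraries numbered 2 lay above both numbered 1 for 10 of the 22 substrates, where 25.2% of all genes did so.

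**Figure D4:**
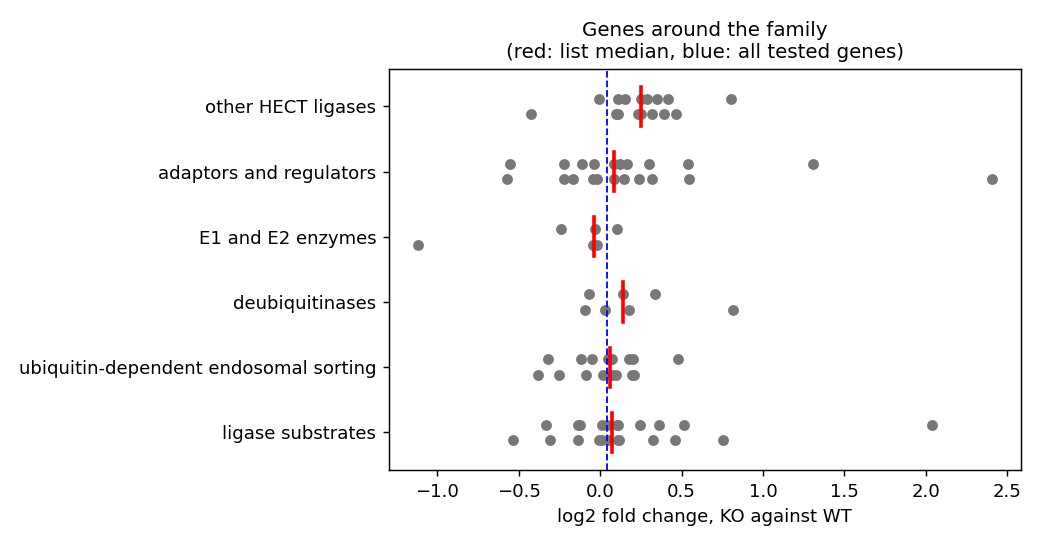
Log2 fold change of KO against WT (horizontal axis) of each tested gene in 6 lists of genes around the family, 1 grey point per gene, offset vertically only for legibility, with a red line for the list median and a dashed blue line for the median over all 12418 genes, 0.041. Grb10 at 2.41, N4bp3 at 1.31 and Traf4 at 2.04 stand apart from the rest of their lists.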

How the data were processed

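Members, lists and tests were chosen with earlier results of these data known. The authors filtered reads with Seqtk, aligned them with HISAT2 2.0.4 and counted fragments per gene with StringTie 1.3.3b. They deposited raw counts for 34745 genes, with FPKM beside each count, for 2 libraries per genotype. The submitters' notes name mm39, but 27686 of 34267 identifiers shared with GENCODE M21 had its GRCm38 positions, so that build is given. For Nedd4l, Wwp2 and Ndfip1 the positions were not identical to those of GENCODE M21 and are printed as deposited. Whether counting used the strand is not given in the sources used here.

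Counts were analysed with edgeR 4.0.16 (R 4.3.3). Genes were kept by filterByExpr (minimum count 10, total 15), scaled by TMM (factors 0.942 to 1.12) and tested across all 12418 genes with glmQLFit and glmQLFTest, genotype as the only term, two-sided, with Benjamini-Hochberg adjustment. CPM used TMM-scaled totals, and ratios within a number had 0.5 counts added. On unscaled library totals, a count of 0 allows up to 0.152 to 0.179 CPM (3 counts), counting error only. The code was tested on simulated data.

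The alternatives changed the scaling (DESeq2 size factors), the filter (absent, or mean CPM of 1 or more), or the design (replicate number as a block). Others removed a loess trend (span 0.5) with implied gene length, omitted each library, or used another test (Wald in DESeq2 1.42.0, exact in edgeR, limma 3.58.1 on log2(FPKM + 1)).

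Named by rule were the 9 members, G3bp1, the 3 genes nearest to Nedd4, and of each list the 2 genes of highest FPKM and up to 3 without overlap at an unadjusted p under 0.05. The markers were 8 lists, for the cell types given in the report; Itgam has 2 rows, which were added. Start windows of Nedd4 were copied from RefSeq (GRCm38.p6). Hectd4 and Vps28 had no row by that symbol and were not analysed here.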

Additional observations from a re-analysis of the deposited data

How the results depend on the processing

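The number of genes called was 0 with DESeq2 size factors, without a filter, at a mean CPM of at least 1, with the gene length correction and with limma on log2(FPKM + 1), and from 0 to 1 when a library was left out, where a lone library is assumed to vary like the others. It was 181 in the DESeq2 Wald test and 229 in the edgeR exact test. The labels do not say that a replicate number marks a shared batch. The same-number correlation of deviations from the genotype mean was 0.71, and 2 pairs are too few to establish a pairing. Adding the replicate block gave 664 calls, 494 of them higher in KO and 170 lower, and 368 together with the gene length correction. With either block N4bp3, Grb10 and Traf4 were called higher. Without a block, the DESeq2 Wald test also called Grb10, and the edgeR exact test Grb10 and Traf4. Of the 8 members other than Nedd4, 0 were called in any of the 13 alternatives, with adjusted p from 0.164 (Ndfip2) upward. For Nedd4 the log2 fold change was 1.92 with the block, 1.64 with the gene length correction with or without the block, and 1.11 with limma on log2(FPKM + 1), which understates low genes. Leaving out a library gave 1.73 to 2.10.

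The sign turned for Smurf1, to -0.10 under the gene length correction and -0.081 if blocked too, and for Ndfip1, to 0.055 and 0.059 in turn. With or without the block, the gene length correction gave 0.20 for Smurf2 and 0.19 for Wwp1. Leaving out a library gave -0.41 to 0.047 for Nedd4l, -0.10 to 0.79 for Wwp1, -0.090 to 0.30 for Wwp2 and -0.31 to 0.59 for Smurf1. It gave -0.57 to -0.076 for Ndfip1, 0.20 to 0.51 for Smurf2, 0.16 to 0.36 for Itch, -0.36 to -0.20 for Ndfip2 and -1.03 to -0.19 for G3bp1. The adjusted p of G3bp1 was 0.0853 with the block, 0.0343 with the block and gene length correction, and from 0.821 upward otherwise. Without 1 library, list medians ran from 0.14 to 0.39 (other HECT ligases), -0.034 to 0.11 (adaptors), -0.28 to 0.15 (E1 and E2 enzymes), 0.041 to 0.26 (deubiquitinases), -0.050 to 0.070 (endosomal sorting) and -0.014 to 0.42 (substrates). With the gene length correction they were 0.021, 0.033, -0.24, 0.010, -0.048 and -0.085 in this order. The causes were not tested. Itch, Smurf2 and Ndfip2 kept their sign in all 13 alternatives.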
